A study of Mus musculus with 12 samples.

Results

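The genes of the cytosolic ribosomal proteins were followed in mouse primary neural stem cells labelled Chd5-/- or wild type (WT). Members were the protein-coding genes whose symbol begins with Rpl or Rps and a number. The kinases of the Rps6k family and Rps27l were left out. The rule gave 87 of the 54356 genes in the tables. Of these, 43 encode large-subunit proteins, 30 encode small-subunit proteins, 6 are paralogs, 7 are copies annotated as coding, and 1, Rps19bp1, encodes a protein that binds a ribosomal protein and is no ribosomal subunit. The filter on low counts left 81 members for testing. Rpl3l, Rpl10l, Rpl39l, Rpl9-ps1, Rpl9-ps6 and Rpl36-ps4 did not pass it, and Rpl39l had no read in any library.

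The study asked which genes differ in Chd5-deficient cells as neural stem cells differentiate. Chd5 encodes a chromatin remodeller of the CHD family. RNA was taken 48 h and 3 h after differentiation was started by replacing the medium with the growth factors EGF and FGF2 by neurobasal medium with B-27 supplement. There were 3 libraries labelled Chd5-/- at 48 h, 3 WT at 48 h, 3 labelled Chd5-/- at 3 h and 3 WT at 3 h. The deleted part of Chd5 is not given in the labels, nor is whether replicates came from separate animals or cultures, so p-values measure only the spread between these libraries.

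A cytosolic ribosome has a small subunit that reads the mRNA and a large subunit that joins amino acids, and each is built of ribosomal RNA and many proteins. Most ribosomal protein mRNAs start with a run of pyrimidines, the 5′ terminal oligopyrimidine (TOP) tract, through which their translation follows growth signals by way of the kinase mTOR. Growing and dividing cells spend a large share of their transcription on ribosomes, and translation of TOP mRNAs is known to be held back as neural stem cells leave the cell cycle.

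The libraries held 14.11 to 18.71 M estimated reads. Chd5 itself did not show the loss that its label names. It had 5.66, 3.34 and 2.95 CPM in the libraries labelled Chd5-/- at 48 h, against 6.57, 7.08 and 5.27 CPM in WT at 48 h, and 5.27, 6.34 and 7.08 CPM in those labelled Chd5-/- at 3 h, against 3.94 and 4.67 CPM in WT at 3 h. CPM are counts scaled to a common library size with TMM factors. At 48 h, replicate 2 of both genotypes stood apart. The summed level of 10 proliferation genes was 1997 CPM in replicate 2 labelled Chd5-/- and 2115 CPM in WT replicate 2, and 135.6 CPM and 123.6 CPM in the lowest library of each group. Markers of microglia and of erythroid cells summed to less than 1 CPM in each library of the fit. Those of endothelial cells summed to 1.40 to 2.57 CPM in Chd5-/- at 48 h, against 8.10 to 8.997 CPM in WT at 48 h, and to 0.514 to 0.634 CPM in Chd5-/- at 3 h, against 4.62 to 5.71 CPM in WT at 3 h. Those of fibroblasts summed to 3.01 to 5.62 CPM in Chd5-/- at 48 h, against 4.76 to 8.82 CPM in WT at 48 h, and to 0.514 to 1.68 CPM in Chd5-/- at 3 h, against 11.1 to 11.8 CPM in WT at 3 h. The 5 astrocyte markers summed to 217.4 to 830.1 CPM in Chd5-/- and 125.5 to 609.8 CPM in WT at 48 h, against 64.5 to 68.4 CPM in Chd5-/- and 49.9 to 54.5 CPM in WT at 3 h. The 10 neural stem and progenitor markers summed to 4546 to 6142 CPM in Chd5-/- and 4222 to 5695 CPM in WT at 48 h. At 3 h they summed to 8827 to 9190 CPM in Chd5-/-, against 5540 to 5629 CPM in WT. The 6 neuron markers summed to 1220 to 1329 CPM in Chd5-/- at 3 h, against 655 to 663 CPM in WT. Their mean log2(CPM + 1) at 3 h was 3.660 to 3.677 in Chd5-/- and 3.601 to 3.663 in WT. The part of these differences in the results was not tested.

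WT replicate 1 at 3 h was set apart from the start. It gave 13.71% of its reads to the members, against 3.82% and 3.69% in WT replicates 2 and 3 at 3 h. The mean length of a transcript, weighted by its reads, was 1806 bases there and 3042 to 3306 bases in the other 11 libraries. Relative to WT replicates 2 and 3, the median member was higher by 2.50 on the log2 scale, and 80 of 81 members were above 0. Among the 2262 other tested genes shorter than 1000 bases the median was 1.16, so the members stood further out than other short genes. All results below rest on the other 11 libraries, unless stated.

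Some members cannot be told apart by their reads. The coding sequences of Rps27, of the small subunit, and Rps27rt, its copy on chromosome 9, are the same in all 255 bases. The sequence is shown because it is the reason that the split of reads between them is uncertain; no letters are in capitals because no base differs.

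Rps27 and Rps27rt: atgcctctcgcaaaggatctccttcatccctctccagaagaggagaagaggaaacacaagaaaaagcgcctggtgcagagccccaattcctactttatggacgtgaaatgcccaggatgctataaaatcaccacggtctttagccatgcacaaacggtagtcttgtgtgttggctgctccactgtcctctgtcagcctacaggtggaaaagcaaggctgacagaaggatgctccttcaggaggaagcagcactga

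Rps27 alone had 62.9, 135.6 and 65.01 CPM in the libraries labelled Chd5-/- at 48 h, against 68.2, 14.5 and 68.1 CPM in WT at 48 h. Summed with Rps27rt, the values were 267, 247 and 285 CPM in Chd5-/- at 48 h, against 294, 252 and 291 CPM in WT at 48 h. Replicate 2 was the highest of its group labelled Chd5-/- and the lowest of WT for Rps27 alone, and the lowest of both groups for the sum. Rpl10 with Rpl10-ps3 (645 coding bases) and Rps12 with Rps12-ps3 (399 coding bases) were likewise identical. Rpl10 held 7.55% to 13.4% of its pair's reads in the 11 libraries, and Rps12 held 14.4% to 29.5%. For 73 members, annotated pseudogenes were at least 95% identical over at least 200 bases. Together these 556 pseudogenes held 25.32% of the combined reads, and for Rpl5, Rpl12 and Rps12 they held 93% to 94%. Values of these members are uncertain, and the results below were also computed with the copies' reads added, for all tested members but the copies Rps27rt, Rpl10-ps3 and Rps12-ps3.

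Between genes, levels were compared per length. The tested members spanned 16 to 2056 CPM per kilobase of transcript length, with a median of 515. The 2 with the highest levels per kilobase were Rpl41, which encodes the smallest ribosomal protein, at 2056 and Rpl13a at 1755. The authors' deposited TPM, also a level per length, ordered them differently, with Rpl13a first, then Rps15a, Rpl18, Rpl6 and Rpl41. Of the TPM of Rpl13a, 79.6% lay on Rpl13a-219, a transcript of 176 bases with an effective length of 7 bases, and of that of Rps15a, 95.4% lay on a transcript with an effective length of 20 bases. Dividing by so few bases raises the TPM of a transcript, so TPM was not used for any comparison.

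**Figure D1:**
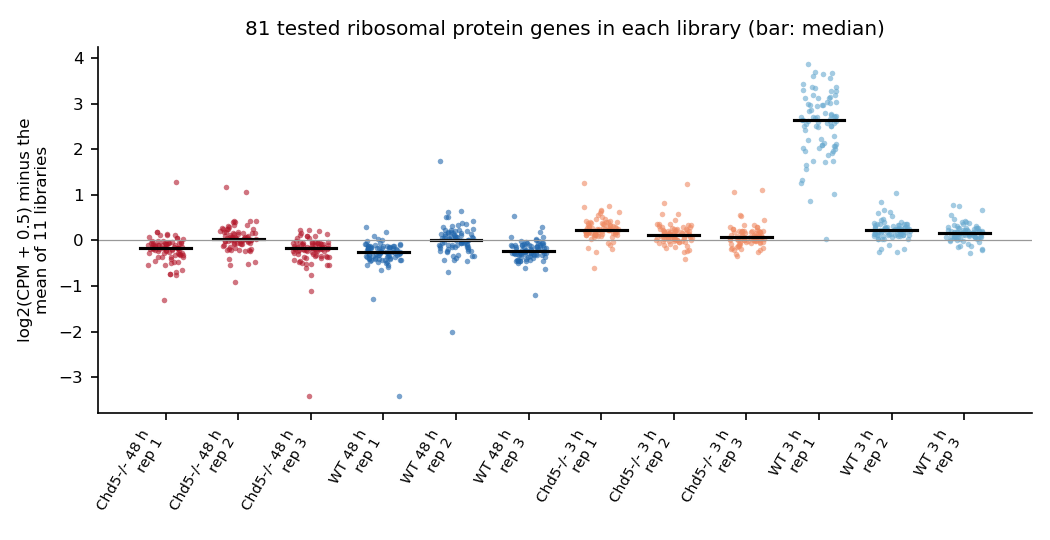
Each point is 1 of the 81 tested members in 1 library: log2(CPM + 0.5) minus the gene's mean over the 11 libraries used for testing. The bar is the median; WT 3 h replicate 1 stands above all other libraries, and replicate 2 of both genotypes at 48 h lies above replicates 1 and 3 of its group.

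Between genotypes, few members differed. With edgeR's quasi-likelihood test and Benjamini-Hochberg adjusted p under 0.05 over all genes, 2 members were higher and 1 lower in libraries labelled Chd5-/- at 48 h, where 8.69% of all 16728 genes tested passed, 4.68% higher and 4.01% lower. At 3 h, 3 were higher and 1 lower, where 9.78% of all genes passed, 5.55% higher and 4.23% lower. In bulk RNA, fewer cells of a type and less RNA per cell cannot be told apart. The median log2 fold change of the members was 0.02 at 48 h and -0.03 at 3 h, beside -0.02 and -0.0021 over all genes. At 48 h, 11 members had all Chd5-/- libraries above all WT libraries and 4 had them below, where 12.3% of all genes were above and 10.7% below, together 23%. At 3 h the counts were 12 and 16, where 33.2% of all genes were above and 32.6% below, together 65.8%.

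Rpl21, which encodes a large-subunit protein, was the member that fell at both times. It had 211.5, 246 and 211.4 CPM in the libraries labelled Chd5-/- at 48 h, against 437, 440.1 and 438.5 CPM in WT at 48 h. At 3 h it had 347, 323 and 300.5 CPM in those labelled Chd5-/-, against 643 and 619 CPM in WT. Each Chd5-/- library lay below each WT library of its time. The log2 fold change was -0.98 (SE 0.10, adjusted p = 0.00059) at 48 h and -0.96 (SE 0.11, adjusted p = 0.00082) at 3 h, and the call held in each fit that left out 1 library; with all 12 libraries the adjusted p at 48 h was 0.72.

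Rpl21 lies on chromosome 5, GRCm38 position 146832890 to 146837032, on the plus strand. Most of its estimated reads, 83.0% to 91.2% in the 11 libraries, were given to Rpl21-204, a transcript of 632 bases annotated as a retained intron. Pseudogene copies held 48.0% of the combined reads, and with them added the log2 fold change was -0.94 at 48 h and -0.98 at 3 h. Genes around Rpl21 were lower too. Of the 35 other tested genes within 2 Mb, 26 were below 0 at 48 h, with a median log2 fold change of -0.22, and 32 were below 0 at 3 h, with a median of -0.55. Between 145 and 152 Mb of chromosome 5, a stretch chosen after its values were seen, the median over 61 genes was -0.84 at 48 h and -1.01 at 3 h, against -0.13 and -0.02 over the 838 genes below 130 Mb. Among its neighbours, picked after their values were seen, Polr1d, which encodes a subunit shared by RNA polymerases I and III, changed by -0.84 (adjusted p = 0.0011) at 48 h and by -0.81 (adjusted p = 0.0016) at 3 h. The part of this regional difference in the fall of Rpl21 was not tested.

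The members that rose at 3 h, Rpl31, Rpl37a and Rpl7, all encode large-subunit proteins and are the only members on chromosome 1. Rpl31 had 186, 169.9 and 179 CPM in the libraries labelled Chd5-/- at 48 h, against 142, 123 and 144.6 CPM in WT, and 333, 294.5 and 286 CPM in those labelled Chd5-/- at 3 h, against 213 and 203.5 CPM in WT. The groups did not overlap at either time. Its log2 fold change was 0.39 (SE 0.10, adjusted p = 0.044) at 48 h and 0.55 (SE 0.11, adjusted p = 0.015) at 3 h.

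Rpl37a had 366, 366 and 358.5 CPM in the libraries labelled Chd5-/- at 48 h, against 283, 304 and 304 CPM in WT, and 457, 428 and 400.1 CPM in those labelled Chd5-/- at 3 h, against 303 and 299.5 CPM in WT. The log2 fold change was 0.29 (SE 0.09, adjusted p = 0.082) at 48 h, which did not pass, and 0.51 (SE 0.10, adjusted p = 0.013) at 3 h. Rpl7, the most abundant of these 3 genes per kilobase, had 1436, 1304 and 1465 CPM in the libraries labelled Chd5-/- at 48 h, against 1154, 943 and 1208 CPM in WT, and 1545, 1474 and 1413 CPM in those labelled Chd5-/- at 3 h, against 1059 and 1036 CPM in WT. Its log2 fold change was 0.35 (SE 0.11, adjusted p = 0.096) at 48 h and 0.50 (SE 0.13, adjusted p = 0.041) at 3 h. For these genes too the groups did not overlap at either time.

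The calls of these genes were less stable than that of Rpl21. At 3 h, the call was kept in 6 of 11 fits with 1 library left out for Rpl31, 7 of 11 for Rpl37a and 2 of 11 for Rpl7, with adjusted p up to 0.22, 0.16 and 0.34, each without WT replicate 3. At 48 h the call of Rpl31 was kept in 2 of 11, with adjusted p up to 0.14 without replicate 1 labelled Chd5-/- at 48 h, and with the reads of pseudogene copies added its adjusted p was 0.074. At 3 h, 0 members were called higher without WT replicate 2, WT replicate 3, or replicate 1 or 2 labelled Chd5-/- of that time, and 1 was without replicate 3 labelled Chd5-/-. At 48 h, 0 were called higher without replicate 1 or 3 of either genotype, 3 without replicate 2 labelled Chd5-/- and 7 without WT replicate 2. Shares of all genes in these fits are not given. The other 1031 tested genes of chromosome 1 had a median log2 fold change of 0.20 at 48 h and 0.47 at 3 h. Relative to that median, Rpl31, Rpl37a and Rpl7 were at 0.19, 0.09 and 0.15 at 48 h and at 0.08, 0.03 and 0.02 at 3 h. Whether a chromosome-wide difference accounts for these members was not tested.

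**Figure D2:**
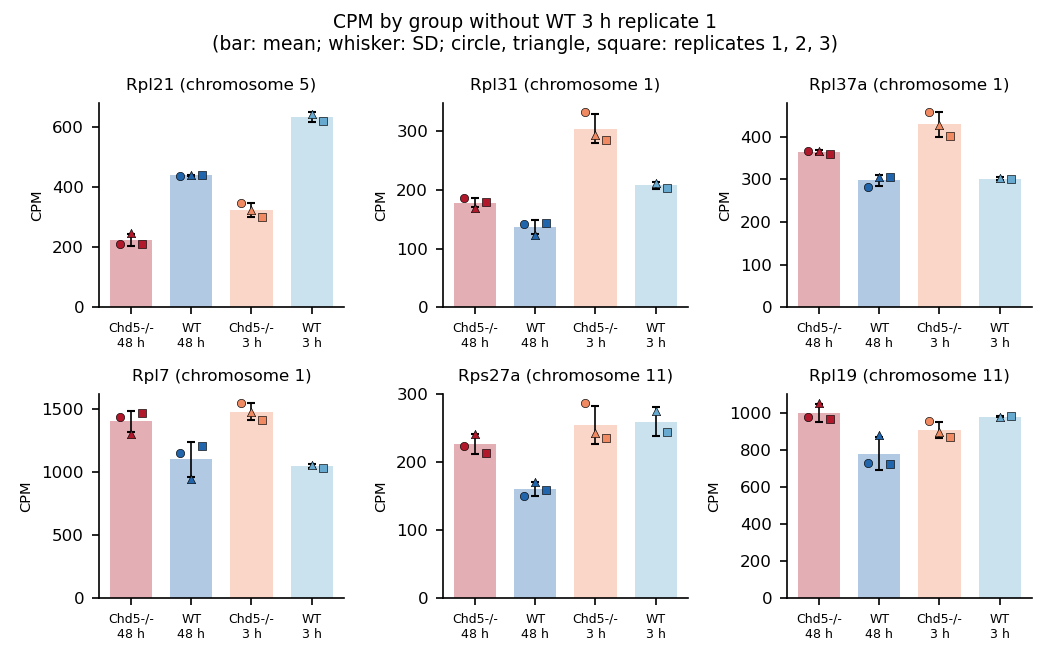
CPM (vertical axis, from 0) of 6 members in 48 h and 3 h libraries, Chd5-/- left of WT at each time; bars are means, whiskers SD, and points the replicates, without WT 3 h replicate 1. Rpl21 is lower in Chd5-/- at both times, Rpl31, Rpl37a and Rpl7 are higher at both, and Rps27a and Rpl19 differ in another way at 48 h than at 3 h.

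At 48 h, Rps27a, which encodes a fusion of ubiquitin and a small-subunit protein, was also higher. It had 223, 242 and 213.5 CPM in the libraries labelled Chd5-/-, against 150.2, 171 and 159 CPM in WT, without overlap. The log2 fold change was 0.50 (SE 0.11, adjusted p = 0.029). The call was kept in 7 of 11 fits with 1 library left out, with adjusted p up to 0.098 without WT replicate 1 at 48 h. Pseudogene copies held 61.5% of its combined reads, and with the reads of pseudogenes named after it added the log2 fold change was 0.33 (adjusted p = 0.14), which did not pass; with near-identical copies added it was 0.53 (adjusted p = 0.017). At 3 h the groups overlapped, and the log2 fold change was -0.03 (adjusted p = 0.97). Rps27a lies on chromosome 11 with 6 other tested members, Rpl19, Rpl23, Rpl23a, Rpl26, Rpl27 and Rpl38. All 7 had positive log2 fold changes at 48 h, between 0.23 and 0.50, where the median of the other 1194 tested genes of the chromosome was 0.19. At 3 h the same 7 lay between -0.16 and 0.03, where the chromosome's median was -0.02.

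On other chromosomes some members were near their chromosome's median and others were not. At 48 h, Rpl13 on chromosome 8 was at 0.31, where the chromosome's median was 0.21, and Rpl32 on chromosome 6 was at 0.35, where it was 0.23; neither passed. At 3 h, Rpl8, Rpl30 and Rps19bp1 on chromosome 15 were at -0.34, -0.33 and -0.38, where the chromosome's median was -0.30; none passed. Rpl3 and Rpl37 of the same chromosome were at -0.01 and -0.07 at 3 h. Rps12-ps3, the 1 member on chromosome 19, was at -0.24 at 48 h, where the chromosome's median was 0.10, and at 0.05 at 3 h, where it was 0.53. At 48 h, 5 chromosomes had a median at least 0.15 from 0, and 16 of their 18 members had the sign of that median; at 3 h there were 3 such chromosomes, and 9 of 9 members. On the remaining chromosomes 30 of 63 members had the sign of the median at 48 h, and 37 of 72 at 3 h. Across the 81 members, the correlation of a member's log2 fold change with its chromosome's median was Pearson's r = 0.52 and Spearman's rho = 0.44 at 48 h, and r = 0.45 and rho = 0.15 at 3 h, a description over genes that share the same libraries.

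**Figure D3:**
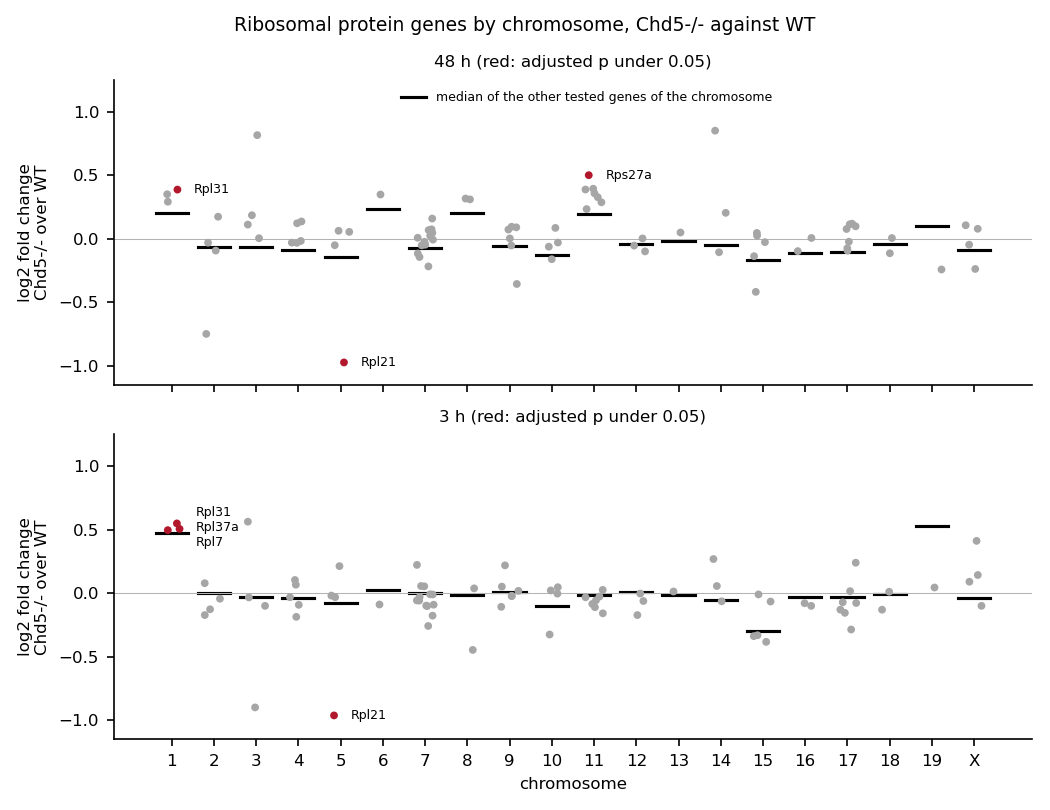
Points are members, placed by chromosome (horizontal axis); the vertical axis is the log2 fold change of Chd5-/- over WT at 48 h (top) and 3 h (bottom), and red points have adjusted p under 0.05. Black lines mark the median of each chromosome's other tested genes: the chromosome 1 members sit at 0.50 to 0.55 near the line at 0.47 at 3 h, and Rpl21 on chromosome 5 lies far below its line at both times.

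At 48 h only replicate 2 correlated best with its own number in the other genotype. Replicate 2 weighs on the group means from which deviations were taken, so pairing of replicates 1 and 3 by number was not settled. With the replicate number as a block, 12 members were higher and 2 lower, Rpl21 and Rpl30, 14.8% and 2.47% of 81. In that fit 20.6% of all genes passed, 11.3% higher and 9.27% lower. Among the 12 were Rpl31, Rpl37a and Rpl7 of chromosome 1, Rps27a, Rpl19, Rpl23, Rpl23a, Rpl26 and Rpl27 of chromosome 11, Rpl13 of chromosome 8, and Rpl32 of chromosome 6. Without the replicates 2 of 48 h, far more of all genes passed. In these 9 libraries 22 members were higher and 4 lower at 48 h, 27.2% and 4.94% of 81, where 47.2% of all genes passed, 25.6% higher and 21.6% lower. At 3 h 9 were higher and 19 lower, 11.1% and 23.5% of 81, where 52.5% of all genes passed, 27.2% higher and 25.3% lower. The median member was at 0.06 at 48 h and -0.03 at 3 h in this fit. The difference between these shares was not tested.

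Rpl19, of the large subunit, had groups that separated in opposite directions at the 2 times. It had 979, 1051 and 964.7 CPM in the libraries labelled Chd5-/- at 48 h, against 729, 881 and 724.7 CPM in WT, and 953, 893.6 and 871 CPM in those labelled Chd5-/- at 3 h, against 975.7 and 981 CPM in WT. All Chd5-/- libraries were thus above WT at 48 h and below WT at 3 h. The log2 fold changes were 0.36 (SE 0.11, adjusted p = 0.095) at 48 h and -0.11 (SE 0.13, adjusted p = 0.75) at 3 h. Their difference, the genotype by time interaction, was 0.47 (SE 0.17, adjusted p = 0.26). In the 9 libraries Rpl19 passed in each of these tests, with log2 fold changes of 0.44 (adjusted p = 1.1e-06) at 48 h and -0.11 (adjusted p = 0.016) at 3 h and an interaction of 0.55 (adjusted p = 3.1e-06). No member passed the edgeR test of the interaction, where 1.85% of all genes did, 0.903% positive and 0.951% negative. An unadjusted p under 0.05 was reached by 5 members, where 2274 of all 16728 genes reached it. DESeq2 called 4 members, all positive, where it called 5.82% of all genes, 2.82% positive and 3% negative. In the 9 libraries 21 members were positive and 5 negative, 25.9% and 6.17% of 81, where 40.4% of all genes passed, 19.3% positive and 21.1% negative.

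Other settings passed other shares of all genes. At 48 h and 3 h between genotypes, DESeq2 passed 14.3% and 14.8%. At 48 h it called 8 members higher and 1 lower, 9.88% and 1.23% of 81, where 7.46% of all genes were higher and 6.85% lower. At 3 h it called 3 higher and 4 lower, where 7.84% of all genes were higher and 6.95% lower. With the length trend removed 9.12% and 10.1% of all genes passed, and the members counted 1 higher and 1 lower at 48 h and 3 higher and 1 lower at 3 h. With all 12 libraries 2.74% and 6.71% passed, with 0 members called at 48 h and 1, Rpl21, lower at 3 h. The interaction passed for 0.231% of all genes with all 12 libraries and for 1.86% with the length trend removed, with 0 members in both. At 3 h the replicate numbers were not shown to pair the libraries, and the block there passed 17% of all genes. In the interaction the block passed 5.41% of all genes, 2.35% positive and 3.06% negative, and 3 members, all positive.

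Rpl22 and its paralog Rpl22l1 were looked at because Rpl22 ends 4579 bases before the annotated start of Chd5 on chromosome 4, and because RPL22 is known to restrain RPL22L1. The coding sequences are 67.5% identical. Rpl22 had 267, 255 and 275 CPM in the libraries labelled Chd5-/- at 48 h, against 253, 210.4 and 264.5 CPM in WT, and 327, 319 and 305 CPM in those labelled Chd5-/- at 3 h, against 364 and 357 CPM in WT. The groups overlapped at 48 h and did not at 3 h. The log2 fold change was 0.14 (adjusted p = 0.47) at 48 h and -0.19 (adjusted p = 0.39) at 3 h. Rpl22l1 had 24.4, 70.0 and 28.3 CPM in the libraries labelled Chd5-/- at 48 h, against 24.9, 55.7 and 26.7 CPM in WT, and 149, 146 and 129 CPM in those labelled Chd5-/- at 3 h, against 94.1 and 97.3 CPM in WT. At 3 h its log2 fold change was 0.56 (SE 0.48, adjusted p = 0.62). In the 9 libraries it was 0.56 (adjusted p = 3.8e-06).

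With time, more members fell than rose in both genotypes, and most did not pass. In the libraries labelled Chd5-/-, 28 members were lower and 1 was higher at 48 h than at 3 h, with a median log2 fold change of -0.24; over all genes 43.5% passed, 20.5% lower and 23% higher, and the median was 0.03. In WT, 29 were lower and none was higher, with a median of -0.34; over all genes 32.4% passed, 15.2% lower and 17.2% higher, and the median was 0.09. At an unadjusted p under 0.05, 39 members passed in WT, where 7384 of all 16728 genes did. DESeq2 called 38 lower and 0 higher in WT, where 2940 of all 16728 genes were lower and 3498 higher. Of the members, 34.6% fell in Chd5-/- and 35.8% in WT. Log2 fold changes were below 0 for 67 of 81 members in Chd5-/- and 75 of 81 in WT. Large-subunit and small-subunit genes had medians of -0.24 and -0.22 in Chd5-/- and -0.34 and -0.34 in WT. The libraries of 48 h lay below those of 3 h without overlap for 37 members in Chd5-/- and above for 5, where 63.5% of all genes did not overlap, 31.7% lower and 31.8% higher. In WT they lay below for 51 and above for 1, where 57.8% of all genes did not overlap, 28.6% lower and 29.2% higher. In all, 23 members fell in both genotypes, 82.1% of those that fell in Chd5-/- and 79.3% of those in WT.

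Part of the shift followed transcript length. The members are short, with a median length of 542 bases against 2535 for the other tested genes, and short genes as a class were lower at 48 h. At a length of 500 bases the fitted trend lay between -0.08 and -0.15 in the libraries labelled Chd5-/- at 48 h and between -0.16 and -0.20 in WT at 48 h, against -0.01 to 0.10 in Chd5-/- at 3 h and 0.03 to 0.07 in WT at 3 h. With the trend removed, the median member was at -0.12 in Chd5-/- and -0.13 in WT, 18 members fell and 4 rose in Chd5-/-, and 16 fell and 1 rose in WT. The members that then fell were 22.2% of 81 in Chd5-/- and 19.8% in WT, near the 20.8% and 15.2% of all genes that fell in the same fit, where 43.8% and 32.2% passed in either direction. In the 9 libraries with the trend removed, 52 members fell in Chd5-/- and 55 in WT, 64.2% and 67.9% of 81. There 6665 and 6341 of all 16489 genes fell, and the median member was at -0.17 and -0.29. What part of the members' shift is particular to them and what part goes with length cannot be told apart in these libraries.

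The fall was steepest in Rpl22l1, whose values are given above: each library at 48 h was below each at 3 h. Its log2 fold change was -1.82 (SE 0.44, adjusted p = 0.0098) in Chd5-/- and -1.44 (SE 0.47, adjusted p = 0.045) in WT. With the length trend removed it was -1.67 (adjusted p = 0.012) in Chd5-/- and -1.17 (adjusted p = 0.080) in WT, which did not pass. In WT it did not pass in 7 of 11 fits with 1 library left out, with adjusted p up to 0.14 without WT replicate 3 of 3 h. Rps2, a small-subunit protein at the mRNA entry side and among the 5 highest members per kilobase, had 870, 1254 and 880 CPM in the libraries labelled Chd5-/- at 48 h, against 2011, 1887 and 1862 CPM in Chd5-/- at 3 h. In WT it had 809.7, 1139 and 821 CPM at 48 h, against 1667 and 1585 CPM at 3 h. The groups did not overlap in either genotype, and the log2 fold change was -0.96 (SE 0.19, adjusted p = 0.0036) in Chd5-/- and -0.84 (SE 0.21, adjusted p = 0.015) in WT. Without WT replicate 2 of 3 h its adjusted p in WT was 0.075.

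Other members fell in both genotypes as well. Rpl41 had 667, 776 and 676.5 CPM at 48 h in Chd5-/-, against 1231, 1102 and 1089 CPM at 3 h, and 730.4, 752 and 732 CPM at 48 h in WT, against 1136 and 1073 CPM at 3 h, without overlap. Its log2 fold change was -0.72 (SE 0.10, adjusted p = 0.00073) in Chd5-/- and -0.61 (SE 0.11, adjusted p = 0.0042) in WT. Rpl31, Rpl29 and Rps12-ps3 fell in both genotypes too, with log2 fold changes of -0.80, -0.65 and -0.996 in Chd5-/- and of -0.63, -0.67 and -0.71 in WT. All of these 4 passed in each fit with 1 library left out, and with the length trend removed.

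Rpl21 fell in parallel in both genotypes, with log2 fold changes of -0.56 (adjusted p = 0.0022) in Chd5-/- and -0.55 (adjusted p = 0.0057) in WT; without WT replicate 2 of 3 h the adjusted p in WT was 0.054. Rps27a fell by 0.72 (adjusted p = 0.0031) in WT and was at -0.19 (adjusted p = 0.20) in Chd5-/-; the test of the difference gave 0.53 (SE 0.17, adjusted p = 0.20). Rpl12, of the large subunit, whose reads are mostly given to copies, depended on them. It was at 0.25 (adjusted p = 0.72) in Chd5-/- and 0.82 (adjusted p = 0.31) in WT alone, and at -0.97 (adjusted p = 0.014) and -0.86 (adjusted p = 0.043) with the copies' reads added.

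**Figure D4:**
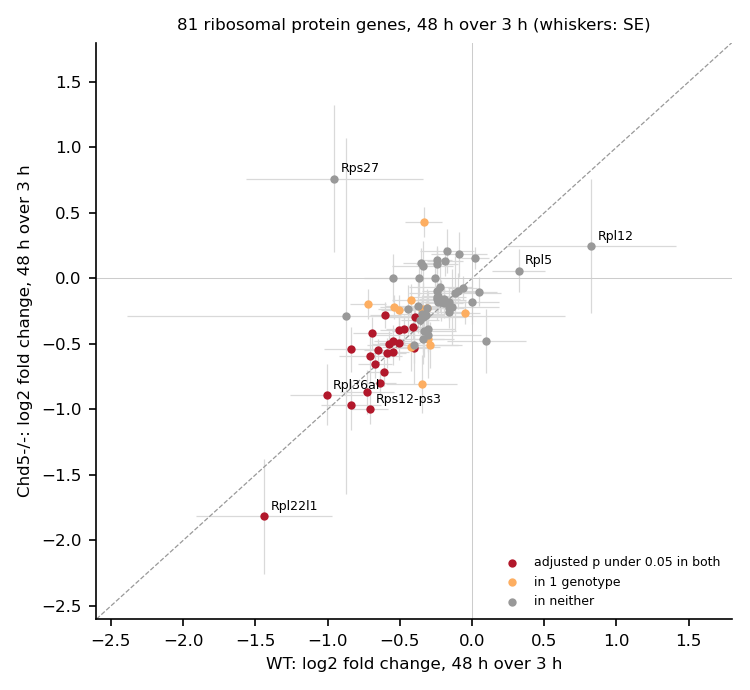
Log2 fold change of 48 h over 3 h for each of the 81 members in Chd5-/- (vertical axis) and WT (horizontal axis), with SE whiskers; the dashed line marks equal values. Most points lie below 0 on both axes, 23 members (red) fell in both genotypes, and Rpl22l1 lies lowest at -1.82 and -1.44.

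The counts depended on single libraries, those of 3 h and 48 h alike. In the fit of 11 libraries less 1, the counts moved as follows. The share of all genes called in each of these fits is not given, so the moves are not shown to be particular to the members. Without WT replicate 2 of 48 h, 37 members fell in Chd5-/- and 54 in WT; without replicate 2 labelled Chd5-/-, 37 and 36 did. Without WT replicate 2 or 3 of 3 h, 8 and 13 members fell in WT, and 22 and 22 in Chd5-/-. Without replicate 1 or 2 labelled Chd5-/- at 3 h, or 1 or 3 labelled so at 48 h, 16, 17, 16 and 15 members fell in Chd5-/-, and without WT replicate 3 of 48 h 18 fell in WT. With all 12 libraries 2 members fell in Chd5-/- and 27 in WT, where 1289 and 1624 of all 16043 genes fell. There 22.1% and 22.9% of all genes passed in either direction. DESeq2 gave 34 and 38 members that fell, 42.0% and 46.9% of 81. With it 3735 and 2940 of all 16728 genes fell, and 47.8% and 38.5% passed in either direction. The replicate block gave 27 and 25 members, 33.3% and 30.9% of 81. With the block 3940 and 2521 of all 16728 genes fell, and 46.4% and 30.3% passed in either direction. The numbers were not shown to pair libraries across times. In the 9 libraries 61 members fell and 3 rose in Chd5-/-, and 71 fell and 2 rose in WT, where 79% and 76% of all genes passed in either direction and 40.1% and 38.4% were lower.

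Replicate 2 of both genotypes at 48 h, in which proliferation genes were high, also had most members higher. Its astrocyte markers summed to 217.4 CPM in Chd5-/- and 125.5 CPM in WT, against 827 and 830.1 CPM in replicates 1 and 3 of Chd5-/- and 602 and 609.8 CPM in those of WT. The 6 neuron markers summed to 727 CPM and 543 CPM in replicate 2 of Chd5-/- and of WT, also the lowest of each group at 48 h. Neural stem and progenitor markers were lowest in replicate 2 too. They summed to 4546 CPM in Chd5-/-, against 6142 and 6118 CPM in replicates 1 and 3, and to 4222 CPM in WT, against 5496 and 5695 CPM. Markers of the oligodendrocyte lineage summed to 871 and 906 CPM there, the highest of each group. A single gene of this list reached 820.5 CPM, so the sums mostly follow that gene. The mean log2(CPM + 1) of the list was lowest in replicate 2 of Chd5-/-, at 4.253 against 4.286 and 4.295 in replicates 1 and 3. In WT it was highest in replicate 2. Replicate 2 lay above replicates 1 and 3 in both genotypes for 54 of 81 members and below them in both for 7; among all tested genes 33.5% lay above and 34.4% below. Rpl3, which encodes a protein that reaches towards the peptidyl transferase centre of the large subunit, is given as an example. It had 547, 1138 and 594.5 CPM in the libraries labelled Chd5-/- at 48 h, against 1030, 972.5 and 1017 CPM in Chd5-/- at 3 h, and 644, 1223 and 629 CPM in WT at 48 h, against 1020 and 1007 CPM in WT at 3 h. Replicate 2 of 48 h was thus above each 3 h library of its genotype, and replicates 1 and 3 were well below them. Over all replicates the change of Rpl3 did not pass, at -0.43 (adjusted p = 0.32) in Chd5-/- and -0.30 (adjusted p = 0.55) in WT; in the 9 libraries it was -0.84 (adjusted p = 2.5e-10) and -0.71 (adjusted p = 3.6e-09).

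Rps19, of the small subunit, also had its highest level of 48 h in replicate 2. It had 338, 585.5 and 336 CPM in Chd5-/- at 48 h, against 631, 575 and 554 CPM at 3 h, and 345, 659 and 355 CPM in WT at 48 h, against 601 and 579.5 CPM at 3 h. The 7 members below in both replicates 2 were Rpl7, Rpl22, Rpl26, Rpl27, Rpl31, Rpl38 and Rps23. Members did not all follow replicate 2 at 48 h: levels of Rpl3 and Rps19 went with replicate 2, and those of Rpl31 and Rpl22 did not. The part of cell division or of these cell type markers in this difference was not tested.

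**Figure D5:**
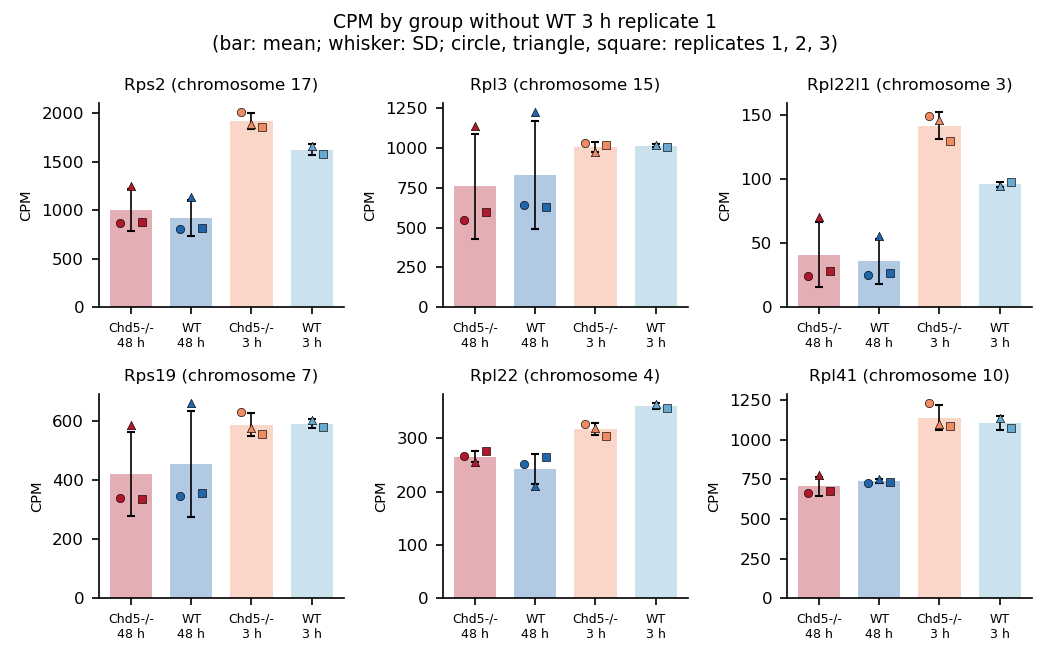
CPM (vertical axis, from 0) of 6 members in the 4 groups; bars are means, whiskers SD, and points the replicates, without WT 3 h replicate 1. Replicate 2 of 48 h (triangles) stands above replicates 1 and 3 for Rps2, Rpl3, Rpl22l1, Rps19 and, by less, Rpl41, and lies below them for Rpl22.

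As a rough stand-in for the TOP tract, a run of pyrimidines was sought in the RefSeq promoter windows of build GRCm38.p6. It had to hold 8 or more unbroken C or T on the sense strand, within 30 bases either side of the annotated start. Such a run was in the windows of 33 of 62 members that had one, 53.2%, and in those of 25.8% of all 27025 genes with a window. Windows of 4 members are shown, with the run in capitals: Rpl31, Rpl37a and Rpl22l1, whose values are given above, and Rps25, which fell in both genotypes with time, with log2 fold changes of -0.59 (adjusted p = 0.039) in Chd5-/- and -0.70 (adjusted p = 0.038) in WT; with the length trend removed neither passed (adjusted p = 0.0998 and 0.15). The first 30 bases lie before the start. No such run was in the windows of Rps2, Rpl41, Rpl22 and Rpl12, which are not printed. Of these, Rps2 and Rpl41 fell in both genotypes with time, as given above.

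Rpl31 (chr1:39367821-39367880, plus strand): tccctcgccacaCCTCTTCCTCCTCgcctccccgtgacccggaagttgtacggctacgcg
Rps25 (chr9:44407684-44407743, plus strand): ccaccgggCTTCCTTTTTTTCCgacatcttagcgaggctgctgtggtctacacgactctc
Rpl22l1 (chr3:28805478-28805537, plus strand): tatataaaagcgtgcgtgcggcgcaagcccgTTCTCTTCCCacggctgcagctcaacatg
Rpl37a (chr1:72711230-72711289, plus strand): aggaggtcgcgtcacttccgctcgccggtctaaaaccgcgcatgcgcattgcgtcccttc

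The run of 13 bases in Rpl31 begins 18 bases before the annotated start, and that of 10 bases in Rpl22l1 begins 1 base after it. That of 14 bases in Rps25 begins 22 bases before the start. The runs of Rpl31 and Rps25 end before the annotated start, so an mRNA that begins there does not hold them. The shares above therefore count runs near the start and not TOP tracts. In Rpl37a no such run is in these 60 bases, but the search cannot tell whether Rpl37a has one. The window ends before the GENCODE start of the gene, and its last bases, tcccttc, are all C or T. A run that crosses the edge of the window would be missed. Among tested members, 12 of 32 with a run fell in Chd5-/-, against 9 of 27 without, and 11 of 32 with a run fell in WT, against 10 of 27 without. The medians were -0.24 and -0.23 in Chd5-/-, and -0.32 and -0.35 in WT. Members counted as without a run, such as Rpl37a, can have one that their windows do not cover. The difference between members with and without the run was not tested.

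Ribosomal proteins with other names fell with time too. Of 7, among them the stalk proteins Rplp0, Rplp1 and Rplp2, and Rpsa, none passed between genotypes. With time, 3 fell in Chd5-/- and 4 in WT, and none rose. Over all genes, 20.5% fell and 23% rose with time in Chd5-/-, and 15.2% fell and 17.2% rose in WT. Rplp1 had log2 fold changes of -0.78 (adjusted p = 0.0011) in Chd5-/- and -0.62 (adjusted p = 0.0084) in WT, and Rplp2 of -0.68 (adjusted p = 0.0076) and -0.77 (adjusted p = 0.0089). Of 15 translation factors and other TOP mRNAs, 5 fell and 4 rose in Chd5-/-, and 4 fell and 1 rose in WT. The nucleolar protein gene Npm1 had log2 fold changes of -0.92 (adjusted p = 0.0047) in Chd5-/- and -1.27 (adjusted p = 0.0022) in WT, and the initiation factor gene Eif3f rose by 0.50 (adjusted p = 0.0031) and 0.57 (adjusted p = 0.0046). Between genotypes, Eif3h on chromosome 15 (-0.50, adjusted p = 0.012) and the elongation factor gene Eef2 (-0.61, adjusted p = 0.020) were lower at 3 h, and none of the 15 passed at 48 h.

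Of 12 regulators of TOP mRNAs and of mTOR, 4 rose and 3 fell in Chd5-/- and 4 rose and 1 fell in WT with time. Of all genes, 23% rose and 20.5% fell in Chd5-/-, and 17.2% rose and 15.2% fell in WT. Rheb, the small GTPase that activates mTOR, had log2 fold changes of -1.32 (adjusted p = 5.7e-05) in Chd5-/- and -1.10 (adjusted p = 0.00044) in WT. Tsc1 and Tsc2, whose proteins restrain Rheb, rose by 0.74 and 0.63 in Chd5-/- and by 0.67 and 0.52 in WT. Rps6kb2, a ribosomal protein S6 kinase, was higher at 3 h in the libraries labelled Chd5-/- (0.71, adjusted p = 0.0099) and was the only one of the 12 to pass between genotypes.

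The 78 mitochondrial ribosomal protein genes, which serve the separate ribosome of mitochondria, gave a similar picture. With time, 30 fell and 1 rose in Chd5-/-, and 36 fell and 1 rose in WT, with medians of -0.26 and -0.43. Of all genes, 20.5% fell in Chd5-/- and 15.2% in WT. Values of these genes with the length trend removed are not given. Between genotypes, 2 were higher at 48 h and 7 at 3 h, where 4.68% and 5.55% of all genes were higher, and none was lower. Mrpl16 on chromosome 19 was higher by 0.48 (adjusted p = 0.011) at 48 h and by 0.97 (adjusted p = 0.00045) at 3 h; the median of the other tested genes of chromosome 19 was 0.10 and 0.53. The difference between the cytosolic and the mitochondrial genes was not tested.

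Splicing forms of Rps24, a small-subunit gene known for alternative 3′ exons, are given as a description. Rps24-202 took most of the gene's reads. Rps24-205 took 4.35%, 1.01% and 3.94% of them in the libraries labelled Chd5-/- at 48 h, against 1.16%, 0.564% and 1.64% in WT at 48 h, and 1.72%, 1.35% and 1.38% in those labelled Chd5-/- at 3 h, against 0.986% and 0.977% in WT at 3 h. Replicates 1 and 3 labelled Chd5-/- at 48 h were the highest of the 11, and replicate 2 of each genotype was the lowest of its group at 48 h. Transcripts were not tested singly. For 58 of 81 members the transcript with the most reads was annotated as protein-coding, and for 12 it was annotated as a retained intron.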

How the data were processed

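Per the labels' protocols, Trizol was used for RNA and the TruSeq Stranded mRNA kit for libraries. The submitters' processing notes name Salmon, with version and index not stated in the sources used here. Per the file headers, the authors deposited estimated counts (NumReads) and TPM for 140658 transcripts. Of these, 140137 matched GENCODE M21 (GRCm38), and the other 521 were left out. Estimated counts were summed per gene, rounded, filtered with filterByExpr (minimum count 10, minimum total 15) and tested in edgeR 4.0.16 (R 4.3.3, TMM scaling, 1 mean per group, two-sided quasi-likelihood F tests), with Benjamini-Hochberg adjustment over all 16728 genes tested. The fit used 11 libraries, since WT replicate 1 at 3 h held far more of its reads on short transcripts. CPM values were computed from TMM factors over all 12 libraries. The length trend was fitted to deviations from each gene's mean over all 12 libraries. WT replicate 1 at 3 h thus entered both. Errors are SD of replicates or SE of the fit.

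The members, gene lists, library set and alternatives were chosen with earlier results of these data known. Members were named by rule: the 10 smallest p, the 3 highest and 3 lowest fold changes of each contrast, the 5 highest TPM, and paralog pairs; results of some members are not reported here, and Rps19, Rpl3, Rps25, Rps24 and Rpl32 were named after their values were seen.

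Same-numbered libraries of the 2 genotypes deviated together at 48 h, with correlations of 0.53, 0.72 and 0.54. Replicates 1 and 3 correlated more across numbers, with 0.56 and 0.57. Deviations were taken from the mean of all 3 libraries of a group, so those of replicates 1 and 3 both reflect replicate 2. At 3 h the correlations of same-numbered libraries were 0.14, 0.06 and 0.04. WT replicate 1 at 3 h entered them and the WT group mean, so they cannot settle whether the numbers pair the 3 h libraries. The test was checked on simulated data. Sequence copies were found with BLAST, and the chromosome medians leave out the members. Alternatives were RLE factors, no filter, DESeq2 1.42.0, a length offset, a loess length trend removed, pseudogene reads added, replicate blocks, other library sets, and each library left out.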

Additional observations from a re-analysis of the deposited data

Results flagged for a closer look

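WT replicate 1 at 3 h, left out of the fit reported, gave 13.71% of its reads to the members and 1.51% to pseudogenes named after them. WT replicates 2 and 3 at 3 h gave 3.82% and 3.69% to the members and 0.60% and 0.59% to those pseudogenes. Reads on short transcripts were more frequent in this library, which had a mean length of 1806 bases; the part of that in the share was not tested.

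Rpl19 had all libraries labelled Chd5-/- above all WT libraries at 48 h and all below at 3 h. The genotype by time interaction was 0.47 (adjusted p = 0.26 in edgeR), which did not pass. With the replicate block the adjusted p was 0.076, and in the 9 libraries without WT replicate 1 of 3 h and both 48 h replicates 2 the interaction was 0.55 (adjusted p = 3.1e-06).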

How the results depend on the processing

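Of the 65 member results past the threshold, all kept direction and side under DESeq2 and in the 9 libraries without both 48 h replicates 2; 24 no longer passed with the length trend removed, 13 with an effective length offset, 18 with no filter on low counts, 4 with RLE factors, 2 with pseudogene reads added, 4 of the 62 that could be recomputed with near-identical copies added, and 6 with the replicate block. With all 12 libraries 34 no longer passed and 3 reversed at 3 h: Rpl7 to -0.077, Rpl37a to -1.05 and Rpl31 to -0.86; the added library stands apart in short genes.

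Numbers of members called higher and lower are given in this order: 48 h against 3 h in Chd5-/-, the same in WT, Chd5-/- against WT at 48 h, the same at 3 h, interaction. They were 1 and 28, 0 and 29, 2 and 1, 3 and 1, 0 and 0 in the fit reported. They were 3 and 61, 2 and 71, 22 and 4, 9 and 19, 21 and 5 in the 9 libraries. They were 12 and 52, 7 and 55, 24 and 9, 20 and 17, 18 and 19 there with the length trend removed. Of all 16489 genes, 6396 and 6665, 6269 and 6341, 4295 and 3789, 4641 and 4300, and 3351 and 3749 were called in that fit. The members called were 4 and 18, 1 and 16, 1 and 1, 3 and 1, 0 and 0 with the trend removed in the 11 libraries. They were 0 and 2, 0 and 27, 0 and 0, 0 and 1, 0 and 0 with all 12 libraries, and 0 and 6, 0 and 12, 0 and 0, 1 and 1, 0 and 0 there with the trend removed. DESeq2 gave 2 and 34, 0 and 38, 8 and 1, 3 and 4, 4 and 0. RLE factors gave 1 higher at 48 h and 2 lower at 3 h; the length offset gave 1 higher at 48 h, and 1 higher and 2 lower at 3 h; no filter gave 0 higher at both times; pseudogene reads gave 0 higher at 48 h; near-identical copies gave 1 higher at 48 h and 1 higher with time in WT. In the fit with near-identical copies 79 members were tested. Rpl9-ps6, untested in the fit reported, had 17.3 reads of its own and 3553 on its pseudogene copies. The largest log2 fold change with time in WT was 3.55 there, against 0.82 in the fit reported. The member called higher there may thus be one not tested in the fit reported. The cause of these differences between fits was not tested. With 1 library left out, the counts of members ranged over 1 to 2 and 15 to 37, 0 to 0 and 8 to 54, 0 to 7 and 1 to 1, 0 to 3 and 1 to 5, 0 to 4 and 0 to 0. Shares of all genes in the fits with 1 library left out are not given.

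With the replicate block, the counts were 1 and 27, 0 and 25, 12 and 2, 4 and 6, and 3 and 0. At 48 h the numbers matched replicate 2, and replicates 1 and 3 correlated slightly more across numbers, which does not settle their pairing. At 3 h and across times no pairing by number was shown, and no replicate correlated best with its own number throughout. Trends, added copies and regional medians joined to other library sets were chosen after seeing the data.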

Other observations

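Rps27l, the paralog of Rps27 that the rule leaves out and that is known as a target of p53, had 55.3, 74.7 and 56.1 CPM in the libraries labelled Chd5-/- at 48 h, against 43.9, 53.8 and 46.7 CPM in WT at 48 h. At 3 h it had 171, 159 and 144 CPM in those labelled Chd5-/-, against 97.6 and 96.0 CPM in WT. The log2 fold change was 0.36 (adjusted p = 0.17 in edgeR) at 48 h and 0.71 (adjusted p = 0.027) at 3 h. With time its log2 fold change was -1.38 (adjusted p = 0.00015) in Chd5-/- and -1.03 (adjusted p = 0.0017) in WT.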
